A study of Mus musculus with 12 samples.

Results

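The comparison described here set bone marrow-derived macrophages (BMDMs) of HSS9 knockout (KO) mice against wild-type (WT) BMDMs, both after LPS for 6 hr, across all genes. Its members were the 6 RNA-seq libraries labelled HSS9 KO or HSS9+/+ with LPS treatment, 3 of each genotype, out of 12 libraries in the series. The other 6 were the untreated (UT) libraries of the same genotypes, whose labels give PBS for the same time. HSS9 is a DNase I hypersensitive site upstream of the gene for tumour necrosis factor, Tnf, and KO mice were homozygous for its deletion, which leaves the Tnf coding sequence in place. WT and KO libraries shared the same 2 treatments, and no library carried another allele or transgene that the labels name. The mice were male, with ages given in the study's methods as a range of weeks and not per library. The labels describe WT as littermates, whereas those methods describe bought C57BL/6 mice and KO mice bred as homozygous pairs, so that a shared genetic background was not assured. Bone marrow cells had been grown in L929-conditioned medium before LPS, whose dose is not given in the sources used here. Each library has a batch number equal to its replicate number, but no source says whether replicates were separate mice, so p-values measure only the spread between these samples.

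LPS, an outer membrane component of Gram-negative bacteria, is sensed by Toll-like receptor 4 on macrophages and activates NF-kappaB, MAP kinase and interferon signalling within hours. Tnf is an early target of that signalling, and its product acts back on macrophages through its own receptors to sustain other cytokine and chemokine genes. Resting macrophages instead express genes for uptake of debris, complement, Fc receptors and lipid handling, many of which LPS represses.

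Library totals ran from 26154533 to 33608859 counts in the 6 LPS libraries. Levels are given as CPM, counts scaled to a common library size, with TMM factors, and 15523 of 48526 genes passed the filter on low counts. The libraries were made from total RNA, and small structured RNAs took a share of the counts that differed with genotype. It was 4.04%, 5.36% and 6.88% in the WT LPS libraries and 3.23% to 3.39% in the KO LPS libraries, and in UT the order was the other way round, with 3.00% to 3.25% in WT and 6.63% to 7.83% in KO. Its part in the results was not tested beyond a fit that held it as a covariate, whose counts are given beside most lists. The share did not overlap between genotypes in either treatment, so its part and that of genotype cannot be told apart by that fit. A call lost in that fit can come with a value as large as before, so values are given beside the lost calls of single genes. Summed macrophage markers were at 24500 to 26000 CPM in WT LPS and 27100 to 28800 CPM in KO LPS, with 6 of 8 markers higher in KO. Neutrophil markers summed to 50.5 to 79.6 and 67.3 to 76.6 CPM, with Ly6g and Elane at or near 0, and 4 of 5 B cell markers, 5 of 7 T and NK cell markers (Cd3e, Cd3d, Cd8a, Trac and Ncr1), 5 of 6 mast cell and basophil markers and all 6 erythroid markers were at or near 0 in every LPS library. The T and NK cell list summed to 0.41 to 0.584 CPM in WT LPS and 0.732 to 1.09 CPM in KO LPS, with 1 of 2 tested higher. Endothelial markers summed to 100 to 125 and 85.5 to 93.9 CPM, with 1 of 3 tested lower in KO and Tie1 and Emcn at or near 0, and megakaryocyte markers to 53.9 to 76.7 and 73.8 to 76.6 CPM, with 1 of 4 higher and Gp1bb at or near 0. The part of these cell types in the results was not tested. In bulk RNA, fewer cells of a type and less RNA per cell cannot be told apart.

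Tnf (ENSMUSG00000024401.14, chr17:35199381-35202007 of GRCm38) was lower in KO after LPS. It stood at 826, 905 and 938 CPM in the WT LPS libraries and 422, 449.5 and 425 CPM in the KO LPS libraries, with no overlap. The log2 fold change was -1.04 (SE 0.060, adjusted p = 2.76e-10). Across all genes, 14.3% passed an adjusted p of 0.05 in this comparison, 7.78% higher and 6.54% lower in KO, with a median log2 fold change of -0.00753. A further threshold of a 2-fold difference left 0.586% called higher and 0.664% called lower. Lists of functionally related genes were therefore read by the adjusted p at any fold, since most shifts within them were smaller than 2-fold. Of the lists with at least 5 members tested, 9 had at least 40% of members higher in KO and 3 had as many lower. Lists and members were chosen with earlier results of these data known, so these shares can owe part of their size to that choice. Over all 15523 genes, every KO LPS library lay above every WT LPS library for 2195 and below for 2318.

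**Figure D1:**
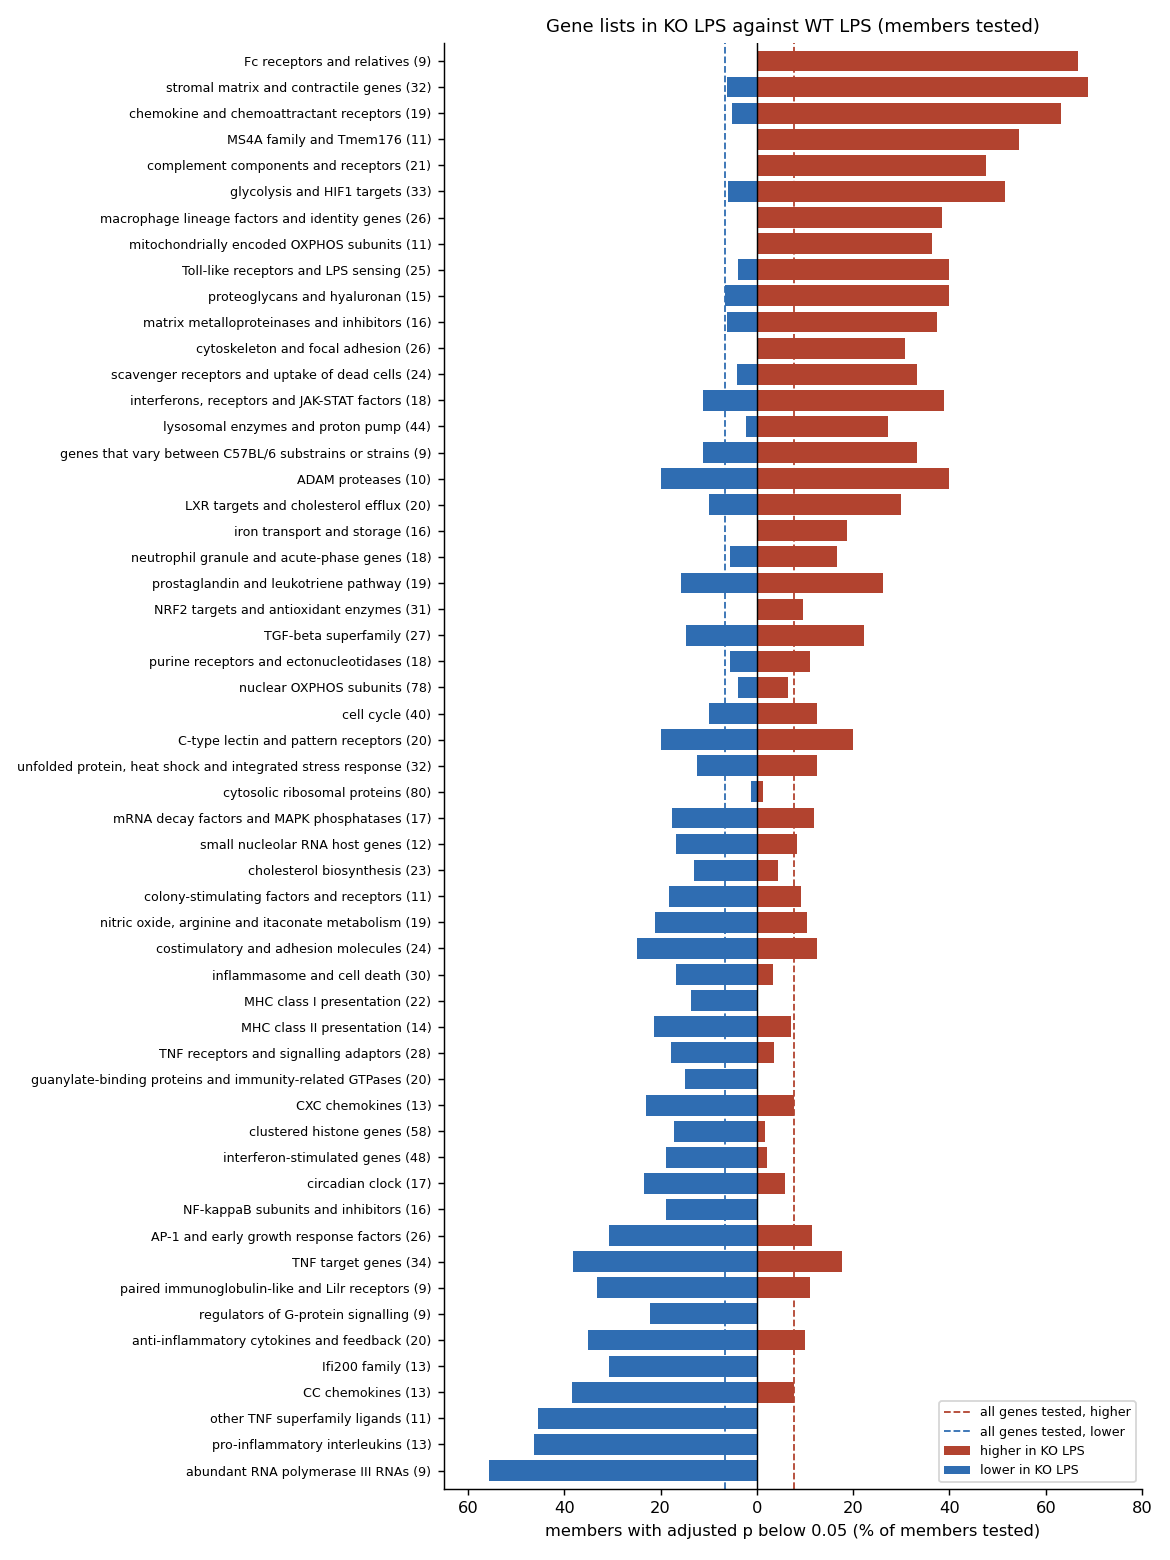
Percent of each list's tested members that passed an adjusted p of 0.05 in KO LPS against WT LPS, to the right for higher and to the left for lower in KO, with the number tested in parentheses for lists of at least 9. Dashed lines mark all genes tested, 7.78% higher and 6.54% lower. Receptor, complement and matrix lists extend far to the right, and interleukins and TNF superfamily ligands extend only to the left.

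The ligands related to TNF that passed the test were all lower in KO LPS. Of 16 other TNF superfamily ligand genes, 11 passed the filter on low counts. Of these, 5 fell in KO LPS and none rose, with a median log2 fold change of -0.36. Tnfsf15, which encodes the T cell costimulator TL1A, was at 64.8, 61.4 and 59.2 CPM in WT LPS and 44.7, 43.1 and 48.6 CPM in KO LPS. Its log2 fold change was -0.44 (SE 0.073, adjusted p = 0.000332). Tnfsf8, which encodes CD30 ligand, fell from 39.6 to 29.9 CPM in the means, and the libraries of the 2 genotypes did not overlap. Tnfsf9, the gene for 4-1BB ligand, fell by 0.32 on the log2 scale (adjusted p = 0.00186), and Tnfsf4 and Lta were the remaining genes that fell. With the share of small structured RNAs as a covariate, 3 of the 11 passed as lower, Tnfsf8 and Tnfsf15 among them and Tnfsf9 not (-0.24, adjusted p = 0.161).

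Most receptor and adaptor genes of TNF signalling did not pass the test. Of 28 tested, 5 fell, 1 rose and 22 did not pass, with a median of -0.04. Tnfrsf1a, the gene for the main TNF receptor, had a log2 fold change of 0.003 (adjusted p = 0.979), and Tnfrsf1b, the gene for the second receptor, one of 0.13 (adjusted p = 0.0761). Tnfrsf1b passed in DESeq2 (adjusted p = 0.0362), with no filter on low counts (adjusted p = 0.0386) and without WT LPS replicate 1 (adjusted p = 0.00303). Traf1, an adaptor whose gene is itself induced by TNF, fell by 0.24 (adjusted p = 0.00485). Adam17, which encodes the protease that releases TNF from the cell surface, rose from 654 to 797 CPM, a log2 fold change of 0.29 (SE 0.055, adjusted p = 0.00145). It was at 0.10 (adjusted p = 0.4) with the covariate, with which 4 genes of the list were lower and none higher. The count of 5 lower was 3 without KO LPS replicate 1 and 3 without KO LPS replicate 2.

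Genes known to respond to TNF split in both directions. Of 34 tested, 13 fell, 6 rose and 15 did not pass, with a median of -0.08. Ptgs2, the gene for cyclooxygenase 2, fell from 2180 to 1674 CPM (log2 fold change -0.38, adjusted p = 0.000717). Tnfaip3, the gene for the inhibitor A20, fell from 1465 to 1191 CPM (log2 fold change -0.30, adjusted p = 0.00133). With the covariate 10 of the 34 were lower and 5 higher. Among NF-kappaB subunits and inhibitors, 3 of 16 fell, namely Nfkb2, Bcl3 and Nfkbib, and none rose. Nfkbia, which encodes the inhibitor IkappaB-alpha, had a log2 fold change of -0.04 (adjusted p = 0.66). Those that rose included Tnfrsf9, the gene for the receptor 4-1BB, which was at 10.8, 11.5 and 10.1 CPM in WT LPS and 22.2, 20.1 and 19.8 CPM in KO LPS. The libraries did not overlap, and its log2 fold change was 0.93 (SE 0.11, adjusted p = 7.5e-06).

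Early response factors also leaned lower. Of 26 AP-1, KLF and NR4A genes, 8 fell and 3 rose, with a median of -0.17. Fosl2, an AP-1 subunit, was at 283, 254 and 274 CPM in WT LPS and 191, 208 and 214 CPM in KO LPS (log2 fold change -0.41, adjusted p = 6.07e-05). Nr4a1, a nuclear receptor of the early response, fell by 0.57 (adjusted p = 1.42e-05). Fos, another AP-1 subunit, went the other way and rose by 0.27 on the log2 scale (adjusted p = 0.00317). The covariate left 5 of the 26 lower and 2 higher. The count of 8 lower was 5 without KO LPS replicate 1, 5 without KO LPS replicate 2, 4 without KO LPS replicate 3 and 4 without WT LPS replicate 2.

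Pro-inflammatory interleukin genes were lower wherever they passed the test. Of 13 tested, 6 fell and none rose. All 6 had libraries that did not overlap between genotypes, as did 2318 of all 15523 genes in the lower direction. The median log2 fold change over the 13 was -0.34, beside -0.00753 over all genes. Il12b, the gene for the subunit shared by IL-12 and IL-23, was at 93.8, 87 and 81.1 CPM in WT LPS and 64.7, 61.6 and 63.8 CPM in KO LPS. Its log2 fold change was -0.46 (SE 0.080, adjusted p = 0.000558). Il27, which encodes a subunit of IL-27, was at 154, 186 and 205 CPM in WT LPS and 118, 128 and 110.1 CPM in KO LPS. The WT libraries spread widely, yet the lowest lay above the highest KO library, and the log2 fold change was -0.62 (SE 0.083, adjusted p = 3.41e-05). Il1a, the gene for IL-1 alpha, was at 716, 656 and 613 CPM in WT LPS and 515, 514 and 541 CPM in KO LPS (log2 fold change -0.34, adjusted p = 0.0125, and 0.0547 without KO LPS replicate 1). Il15 fell by 0.29 (adjusted p = 0.00181) and Osm by 0.36 (adjusted p = 0.00723, and 0.0537 without KO LPS replicate 2). Il6, the sixth, had the largest fall of the 6, at -0.96 (adjusted p = 2.1e-06). The study reports Il6 as unchanged in KO BMDMs, in mRNA and in protein. Il1b, the gene for the inflammasome substrate IL-1 beta, was at 8418, 8630 and 8294 CPM in WT LPS and 8093, 8307 and 7496 CPM in KO LPS. Its log2 fold change of -0.08 did not pass the test (adjusted p = 0.288). With the covariate, 4 of the 6 still passed, and Il27 (-0.24, adjusted p = 0.0783) and Osm (-0.37, adjusted p = 0.099) did not. The value of Osm was thus about as large as without it.

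Some anti-inflammatory and feedback genes fell, Il10 among them. Of 20 genes on this list, 7 fell, 2 rose and 11 did not pass, with a median of -0.14, and with the covariate 7 were lower and 1 higher. The count of 7 was 4 without WT LPS replicate 2. Il10, which encodes the main cytokine that restrains macrophage activation, was at 143, 161 and 144 CPM in WT LPS and 99.7, 102 and 95.6 CPM in KO LPS. The groups were well apart, with a log2 fold change of -0.59 (SE 0.064, adjusted p = 3.45e-06). Without LPS, Il10 differed in the opposite direction, by 0.84 (adjusted p = 8.6e-07), and the interaction of genotype and LPS was -1.43 (adjusted p = 3.87e-08; with the covariate -1.37, adjusted p = 0.00195). Cish, the gene for a cytokine signalling inhibitor, and Nfil3, the gene for a transcription factor that restrains Il12b, fell by 0.89 and 0.28 (adjusted p = 0.00618 and 0.00221).

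Chemokine genes were divided within 1 cluster on chromosome 5. Of 13 CXC chemokines tested, 3 fell and 1 rose, and with the covariate 2 were lower and 3 higher. Cxcl1, Cxcl2 and Cxcl3 encode neutrophil attractants and lie at chr5:90891241-90893115, chr5:90903871-90905938 and chr5:90786103-90789600 of GRCm38. Cxcl3 was at 126, 110.5 and 102 CPM in WT LPS and 57.6, 51.3 and 56.4 CPM in KO LPS, and Cxcl2 at 696, 790.2 and 732 CPM in WT LPS and 480.2, 516 and 465 CPM in KO LPS. Both groups of libraries were apart, with log2 fold changes of -1.04 for Cxcl3 (SE 0.083, adjusted p = 3.5e-08) and -0.60 for Cxcl2 (SE 0.083, adjusted p = 4.9e-05). Cxcl1 moved the other way, from 229, 245 and 246 CPM in WT LPS to 410.5, 402 and 383 CPM in KO LPS, again with no overlap. Its log2 fold change was 0.73 (SE 0.056, adjusted p = 1.49e-08). In UT, Cxcl1 and Cxcl2 were both higher in KO, by 2.03 and 0.50 on the log2 scale (adjusted p = 4.53e-12 and 0.00138), and with the covariate by 1.83 and 0.42 (adjusted p = 3.1e-09 and 0.23).

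The promoters of these 3 genes are shown because they hold the same 10-base kappaB-like match although the genes moved apart, with Il6 as a further gene that fell. Each window runs from 250 bases before to 50 bases after the RefSeq start (GRCm38.p6, the gene's strand), and the capitals mark GGGA, any base and TTTCC in a row, searched on both strands.
Cxcl1 (chr5:90890995-90891294, plus strand): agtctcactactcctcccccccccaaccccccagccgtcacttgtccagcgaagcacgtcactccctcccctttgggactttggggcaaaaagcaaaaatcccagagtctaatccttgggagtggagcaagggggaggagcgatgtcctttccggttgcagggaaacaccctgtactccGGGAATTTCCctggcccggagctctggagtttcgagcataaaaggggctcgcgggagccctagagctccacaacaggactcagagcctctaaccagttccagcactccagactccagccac
Cxcl2 (chr5:90903649-90903948, plus strand): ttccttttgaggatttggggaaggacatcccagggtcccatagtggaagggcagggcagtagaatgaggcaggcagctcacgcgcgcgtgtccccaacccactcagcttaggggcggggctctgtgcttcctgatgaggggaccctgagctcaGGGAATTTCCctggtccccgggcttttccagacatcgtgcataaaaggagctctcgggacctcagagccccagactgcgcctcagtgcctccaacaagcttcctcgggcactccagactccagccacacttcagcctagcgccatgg
Cxcl3 (chr5:90785851-90786150, plus strand): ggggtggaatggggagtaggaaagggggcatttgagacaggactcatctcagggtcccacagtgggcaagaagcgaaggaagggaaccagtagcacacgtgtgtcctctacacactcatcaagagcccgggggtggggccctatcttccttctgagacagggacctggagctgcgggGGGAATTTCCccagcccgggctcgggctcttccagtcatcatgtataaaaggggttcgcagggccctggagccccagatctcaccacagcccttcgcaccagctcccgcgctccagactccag
Il6 (chr5:30012864-30013163, plus strand): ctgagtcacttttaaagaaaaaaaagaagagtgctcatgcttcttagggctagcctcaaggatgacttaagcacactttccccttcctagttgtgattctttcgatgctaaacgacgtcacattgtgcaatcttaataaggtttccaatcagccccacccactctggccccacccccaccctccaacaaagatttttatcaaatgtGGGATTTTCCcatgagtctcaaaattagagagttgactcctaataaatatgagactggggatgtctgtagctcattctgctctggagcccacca
The match ended 34 bases before the start of Il6, 61 before Cxcl1, 63 before Cxcl3 and 87 before Cxcl2. Among 10233 tested genes with a RefSeq promoter, 56 held it (0.547%). Of those 56, 8 rose and 6 fell in KO LPS, with a median log2 fold change of 0.01. Tnf holds no such match in this window, and a match is a description of letters and not of binding.

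CC chemokines leaned lower. Of 13 tested, 5 fell and 1 rose, with a median of -0.25. Ccl3, which encodes an attractant of monocytes and T cells, was at 1357, 1521 and 1615 CPM in WT LPS and 1091, 1104 and 1061 CPM in KO LPS (log2 fold change -0.46, SE 0.061, adjusted p = 2.83e-05). Ccl2, the gene for the main monocyte attractant, was at 311, 365 and 356 CPM in WT LPS and 253, 248 and 226 CPM in KO LPS (log2 fold change -0.50, adjusted p = 0.000847). Neither gene's libraries overlapped between genotypes. Ccl22, which encodes a ligand of CCR4, fell by 0.49 (adjusted p = 0.00591). Ccl5, an attractant of T cells and monocytes, had a log2 fold change of 0.09 that did not pass (adjusted p = 0.49). Ccl9 was the member that rose, by 0.16 (adjusted p = 0.0203). It did not pass without KO LPS replicate 1 or without KO LPS replicate 2 (adjusted p = 0.0906 and 0.107). Nor did it pass among protein-coding genes only or in the LPS libraries alone (adjusted p = 0.0696 and 0.0836). The count of 5 lower was 8 without WT LPS replicate 1, 3 without WT LPS replicate 2, 3 without WT LPS replicate 3, 3 without KO LPS replicate 1 and 3 without KO LPS replicate 3. With the covariate, 2 CC chemokines passed as lower and none as higher, and Ccl2 was at -0.28 (adjusted p = 0.125), with a list median of -0.03.

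**Figure D2:**
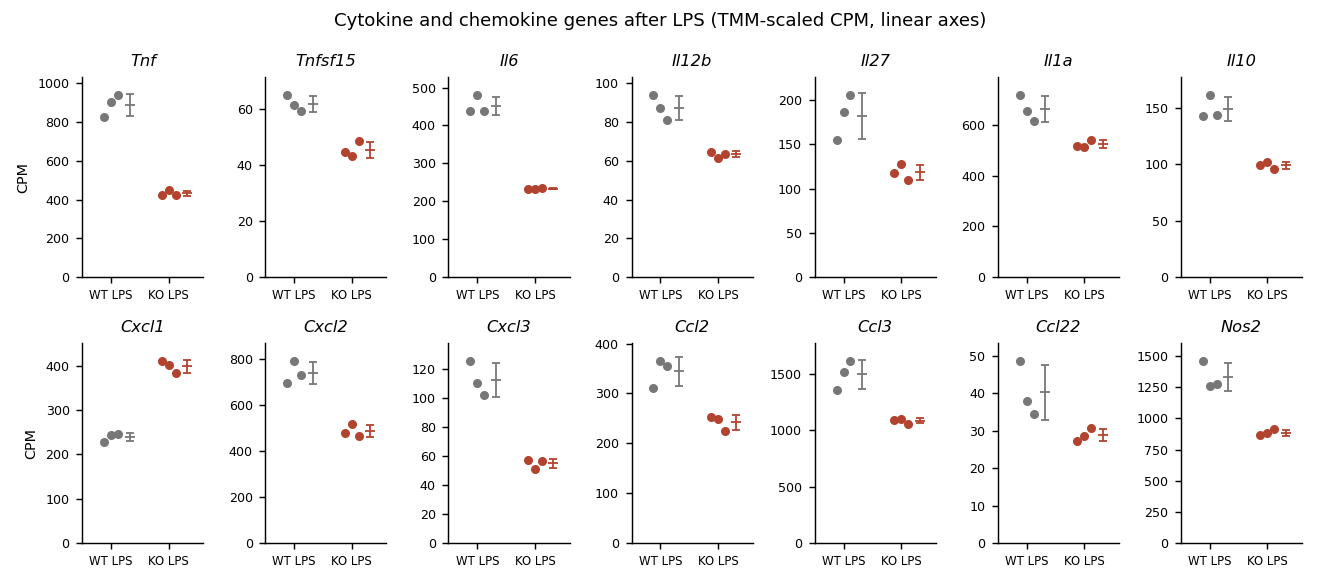
TMM-scaled CPM of 14 cytokine, chemokine and effector genes in the 3 WT LPS (grey) and 3 KO LPS (red) libraries on linear axes from 0, with the mean and SD beside the points. In 13 panels the KO libraries lie below the WT libraries, and Cxcl1 is the panel where they lie above.

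Most genes for receptors that sense chemoattractants were higher in KO LPS. Of 19 receptor genes tested, 12 rose and 1 fell, with a median of 0.32, and with the covariate 8 were higher and 2 lower. Cmklr1, which encodes the chemerin receptor, was at 15, 13.4 and 17.1 CPM in WT LPS and 25.8, 27 and 31 CPM in KO LPS. Its log2 fold change was 0.88 (SE 0.099, adjusted p = 4.79e-06). Ccr2, the gene for the receptor of CCL2, was at 64.1, 56.5 and 50 CPM in WT LPS and 86.6, 81.2 and 94 CPM in KO LPS, without overlap. Its log2 fold change was 0.62 (SE 0.079, adjusted p = 2.27e-05). C3ar1, the gene for the receptor of complement fragment C3a, was at 1051, 911 and 918 CPM in WT LPS and 1304, 1306 and 1431 CPM in KO LPS (log2 fold change 0.49, adjusted p = 7.55e-06). Fpr1 and Fpr2, which encode formyl peptide receptors, rose by 0.38 and 0.33 on the log2 scale (adjusted p = 0.00249 and 0.00379). S1pr1 and Ccr3 rose by 0.63 and 0.60 (adjusted p = 4.84e-05 and 5.55e-05). Ccrl2, a chemerin-binding receptor that LPS induces, was the member that fell, by 0.39 (adjusted p = 5.72e-05). In UT, 5 of the 19 were higher and 3 lower in KO, in a comparison with 14.1% of all genes higher and 9.69% lower. Ccr2 differed in UT by -0.33 (adjusted p = 0.00248, interaction 0.94, adjusted p = 9.34e-06). With the covariate neither passed for Ccr2 and both signs turned, to 0.32 in UT (adjusted p = 0.207) and -0.04 for the interaction (adjusted p = 0.961), and 2 of the 19 were higher and 1 lower in UT.

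Complement genes that passed the test were higher in KO LPS, the 3 chains of C1q among them. Of 21 complement genes tested, 10 rose and none fell, with a median of 0.34. C1qa, C1qb and C1qc lie together on chromosome 4 (chr4:136880129-136898803) and encode the chains of the protein that recognises immune complexes and dying cells. C1qa was at 140.1, 176 and 170.4 CPM in WT LPS and 372, 366 and 322 CPM in KO LPS. C1qb was at 231, 234 and 262 CPM in WT LPS and 426, 415 and 439 CPM in KO LPS. C1qc was at 331, 373 and 404 CPM in WT LPS and 617, 636 and 607 CPM in KO LPS. All 3 were higher in every KO library than in any WT library, by 1.12, 0.81 and 0.75 on the log2 scale (SE 0.074, 0.057 and 0.062; adjusted p = 2.06e-09, 4.35e-09 and 6.79e-08). Without LPS they were also higher in KO, by 1.43, 0.64 and 1.003, and with the covariate C1qb did not pass there (0.32, adjusted p = 0.0803). Itgam, which encodes a subunit of complement receptor 3, rose by 0.36 (adjusted p = 0.00531). Cd59a, the gene for an inhibitor of complement lysis, rose from 1.91 to 5.06 CPM (log2 fold change 1.40, adjusted p = 7.55e-06). With the covariate, 7 of the 10 passed.

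Most Fc receptor genes were higher as well. Of 9 tested, 6 rose and none fell, and the count was 6 without any 1 of the LPS libraries. Fcgr3, which encodes an activating low-affinity IgG receptor, was at 659, 704 and 639 CPM in WT LPS and 885, 913 and 889 CPM in KO LPS (log2 fold change 0.42, SE 0.050, adjusted p = 7.74e-06). Fcgr2b, the gene for the inhibitory IgG receptor, was at 1589, 1595 and 1490 CPM in WT LPS and 1914, 1857 and 1930 CPM in KO LPS (log2 fold change 0.29, adjusted p = 0.000641). The activating and the inhibitory receptor thus moved in the same direction, each without overlap. Fcgr1, the gene for the high-affinity receptor, rose by 0.26 (adjusted p = 0.00112). With the covariate 5 of the 9 were higher.

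The MS4A and Tmem176 membrane proteins held increases and no decrease. Of 11 tested, 6 rose and none fell, and 5 were higher with the covariate. Tmem176b, an ion channel gene of macrophages and dendritic cells, was at 53.7, 58.2 and 61.5 CPM in WT LPS and 122, 129 and 110.4 CPM in KO LPS (log2 fold change 1.06, SE 0.065, adjusted p = 6.11e-10). Tmem176a, which overlaps it on the opposite strand, rose by 0.85 (adjusted p = 2.03e-06), and reads of the pair may be shared, because no source gives the setting for strand used in counting. Ms4a6d and Ms4a6c had opposite signs in the 2 treatments. Ms4a6d was higher in KO LPS, with 1873, 1890 and 1771 CPM in WT and 2371, 2405 and 2187 CPM in KO, a log2 fold change of 0.33 (adjusted p = 0.000176). In UT it was lower in KO by 0.29 (adjusted p = 0.000236), and the interaction was 0.62 (adjusted p = 1.06e-05). With the covariate the Ms4a6d interaction was 0.40 (adjusted p = 0.202). Ms4a6c did the same, with 0.28 after LPS (adjusted p = 0.000183) and -0.36 in UT (adjusted p = 4.66e-06, interaction adjusted p = 9.05e-07, and 0.00676 with the covariate).

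Some identity and uptake genes of macrophages were higher, and most did not pass the test. Of 26 lineage factors and identity genes, 10 rose, none fell and 16 did not pass, with a median of 0.12. Adgre1, which encodes the surface antigen F4/80, was at 2702, 2556 and 2465 CPM in WT LPS and 3131, 3150 and 3227 CPM in KO LPS (log2 fold change 0.30, SE 0.046, adjusted p = 0.000151), and Id2, a transcriptional inhibitor, rose by 0.49 (adjusted p = 2.11e-05). Of 24 scavenger and uptake genes, 8 rose, 1 fell and 15 did not pass. With the covariate 7 identity genes and 7 uptake genes were higher. Mrc1, the gene for the mannose receptor, was at 44, 43.2 and 41 CPM in WT LPS and 74.7, 74.9 and 81.2 CPM in KO LPS (log2 fold change 0.85, SE 0.058, adjusted p = 3.33e-09). Cd36, the gene for a receptor of oxidised lipids, was at 247, 229.8 and 209.8 CPM in WT LPS and 405, 395 and 406 CPM in KO LPS (log2 fold change 0.81, SE 0.064, adjusted p = 3.12e-08). Axl, a receptor kinase that binds dying cells through Gas6, was the member that fell, by 0.30 (adjusted p = 0.0037), while Gas6 rose by 0.36 (adjusted p = 0.000179). Selenop and Igf1, named after their values were seen, rose from 527 to 833 CPM and from 190.1 to 297 CPM (adjusted p = 7e-08 and 1.25e-06).

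Genes on the list of liver X receptor targets and cholesterol efflux were mixed. Of 20 tested, 6 rose and 2 fell, and with the covariate 3 were higher and 1 lower. Abca9, a lipid transporter gene, was at 5.89, 5.57 and 5.42 CPM in WT LPS and 11.6, 10.4 and 12.9 CPM in KO LPS (log2 fold change 1.04, SE 0.10, adjusted p = 6.45e-07). Lpl, the gene for lipoprotein lipase, rose by 0.39 (adjusted p = 5.69e-05). Abca1, which encodes a main cholesterol exporter, had a log2 fold change of 0.10 that did not pass (adjusted p = 0.165). The largest change in the list, that of Apoe, a lipid carrier gene, was present in UT too at 1.52 beside 1.23 after LPS.

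**Figure D3:**
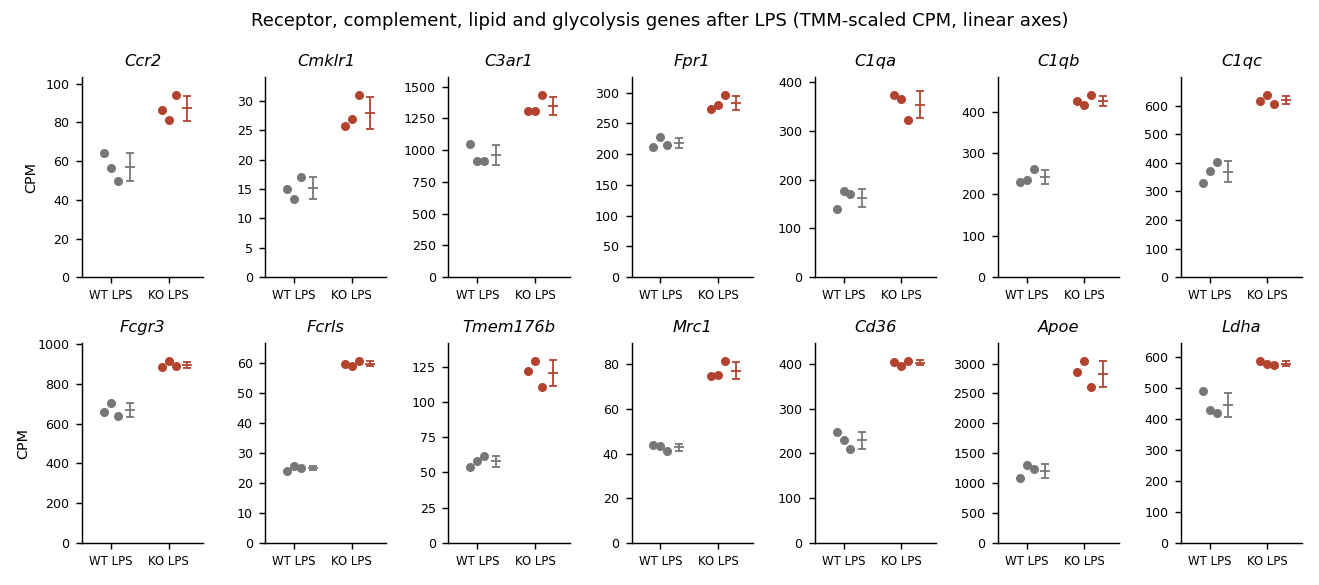
TMM-scaled CPM of 14 genes for chemoattractant receptors, C1q chains, Fc receptors, uptake receptors, Apoe and Ldha in the 3 WT LPS (grey) and 3 KO LPS (red) libraries on linear axes from 0, with the mean and SD beside the points. In every panel all KO libraries lie above all WT libraries.

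Genes of Toll-like receptors and of LPS sensing, taken as 1 list, moved by small amounts. Of 25 tested, 10 rose and 1 fell, with a median of 0.09. Ly86, which encodes the MD-1 partner of the receptor homologue CD180, was at 136, 144 and 142 CPM in WT LPS and 186, 199 and 194 CPM in KO LPS (log2 fold change 0.46, SE 0.057, adjusted p = 1.87e-05). Tlr1 rose by 0.36 (adjusted p = 0.000289) and Tlr2, whose product pairs with that of Tlr1, fell by 0.23 (adjusted p = 0.00411). Tlr4, the gene for the LPS receptor itself, was at 115, 101 and 98.8 CPM in WT LPS and 119, 119.9 and 134 CPM in KO LPS. The log2 fold change of Tlr4 was 0.25 (adjusted p = 0.0186), and with the covariate it was at 0.01 (adjusted p = 0.963). The adjusted p of Tlr4 was 0.105, 0.081 and 0.0659 without KO LPS replicate 3, WT LPS replicate 2 and WT LPS replicate 3. The count of 10 moved with the setting, with 3 under the covariate, 6 in a fit of the LPS libraries alone, 3 without KO LPS replicate 3, 4 without WT LPS replicate 2 and 6 without WT LPS replicate 3.

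Many glycolytic genes were higher in KO LPS. Of 33 genes of glycolysis and of the hypoxia factor HIF1, 17 rose and 2 fell, with a median of 0.20. Ldha, the gene for the enzyme that turns pyruvate into lactate, was at 491, 431 and 419 CPM in WT LPS and 588, 578 and 574 CPM in KO LPS (log2 fold change 0.38, SE 0.056, adjusted p = 0.000119). Pgk1 and Tpi1, which encode enzymes of the middle of the pathway, rose by 0.37 and 0.36 (adjusted p = 6.07e-05 and 0.000134). Slc16a3, the gene for a lactate exporter, rose by 0.33 (adjusted p = 0.000224), and Pdk1, which encodes a kinase that keeps pyruvate out of mitochondria, by 0.53 (adjusted p = 2.09e-05). Pfkfb3, whose product drives glycolysis in activated macrophages, fell from 1323 to 1081 CPM (log2 fold change -0.29, adjusted p = 0.00149). Slc2a1, the gene for the main glucose transporter, did not pass (0.10, adjusted p = 0.227). Without LPS the list was even, with 6 higher and 6 lower of the same 33, beside 14.1% and 9.69% of all genes. The interaction passed for 14 of them, 13 more positive and 1 more negative after LPS, beside 7.32% and 9.5% of all genes (16.8% in either direction). With the covariate 10 were higher and 1 lower after LPS, and the interaction passed for 2 as more positive and 1 as more negative, with its median at 0.06 in place of 0.18.

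Effector metabolism was mixed. Of 19 genes of nitric oxide, arginine and itaconate metabolism 2 rose and 4 fell (10.5% and 21.1%, beside 7.78% and 6.54% of all genes). Of 19 genes of the prostaglandin and leukotriene pathway 5 rose and 3 fell (26.3% and 15.8%). Nos2, which encodes inducible nitric oxide synthase, was at 1460, 1261 and 1280 CPM in WT LPS and 865, 883 and 912 CPM in KO LPS (log2 fold change -0.59, SE 0.073, adjusted p = 1.39e-05). The groups did not overlap. Acod1, the gene for the enzyme that makes itaconate, did not pass (0.05, adjusted p = 0.664). In the prostaglandin pathway Ptges, the gene for the terminal prostaglandin E synthase, rose from 1251 to 1778 CPM (adjusted p = 3.02e-05) while Ptgs2 fell.

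Costimulatory and adhesion genes leaned lower, with 6 of 24 that fell and 3 that rose. Itgb7, the gene for a leukocyte integrin chain, was at 142, 145 and 144 CPM in WT LPS and 82.2, 87.2 and 82 CPM in KO LPS (log2 fold change -0.78, SE 0.058, adjusted p = 1.14e-08). Havcr2, the gene for the inhibitory receptor TIM-3, and Cd69, the gene for an early activation antigen, fell by 0.72 and 0.31 (adjusted p = 3.86e-05 and 0.00303). With the covariate 9 of the 24 were lower and 1 higher.

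The largest median of any list was that of matrix and contractile genes, most of them at a few CPM or less. Of 32 tested, 22 rose, 2 fell and 18 passed the 2-fold threshold as higher, with a median of 1.26. Acta2, the gene for smooth muscle actin, was at 2.76, 2.87 and 3.35 CPM in WT LPS and 9.54, 10.9 and 10.8 CPM in KO LPS (log2 fold change 1.80, SE 0.14, adjusted p = 3.5e-08). Myl9, which encodes a myosin light chain of contractile cells, was at 0.447, 0.539 and 0.424 CPM in WT LPS and 3.1, 2.14 and 1.87 CPM in KO LPS (log2 fold change 2.33, SE 0.30, adjusted p = 2.02e-05). Timp3, from the list of metalloproteinases and inhibitors, was at 2.83, 2.65 and 1.93 CPM in WT LPS and 6.02, 6.98 and 7.68 CPM in KO LPS (log2 fold change 1.47, SE 0.18, adjusted p = 1.3e-05). None of these overlapped between genotypes. Col5a2, a fibrillar collagen gene, was at 2.5, 1.93 and 1.65 CPM in WT LPS and 5.79, 5.07 and 4.98 CPM in KO LPS, and Sparc, which encodes a collagen-binding protein, at 1.08, 0.943 and 0.848 CPM in WT LPS and 2.42, 2.55 and 3.81 CPM in KO LPS. Their log2 fold changes were 1.36 and 1.60 (adjusted p = 0.000122 and 0.000166), and with the covariate 1.08 and 1.12 (adjusted p = 0.0516 and 0.127). Fstl1, which is on no list and encodes a secreted glycoprotein of mesenchymal cells, rose from 4.12 to 9.51 CPM (log2 fold change 1.20, adjusted p = 1.2e-05).

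The 8 stromal cell markers summed to 21.7 to 24.1 CPM in WT LPS and 26.7 to 28.8 CPM in KO LPS, with 4 of 6 tested higher in KO and Lum and Thy1 at or near 0. The 4 that rose, Col1a1, Col1a2, Col3a1 and Dcn, are also on the matrix list. Pdgfrb, which encodes a receptor of mural cells and fibroblasts, was at 19.8, 19.9 and 19.8 CPM in WT LPS and 20.6, 19.8 and 18.9 CPM in KO LPS (log2 fold change -0.01, adjusted p = 0.968). The part of stromal cells in the matrix result was not tested. Not every member followed the list. Thbs1, which encodes thrombospondin 1, fell from 914 to 786 CPM (log2 fold change -0.22, adjusted p = 0.00963, and 0.065 without KO LPS replicate 2). With the covariate, 4 of the 22 passed, Acta2, Myl9, Ccn2 and the collagen gene Col6a2, and the median was 0.59. Without WT LPS replicate 3, the count was 13. In UT, 10 of the 32 were higher and 1 lower in KO, beside 14.1% and 9.69% of all genes, with a list median of 0.31. The interaction was positive for 8 of the 32, including Acta2 (0.84, adjusted p = 0.00511) and Ccn2 (0.95, adjusted p = 0.00471). With the covariate 0 were higher and 1 lower in UT, while the UT median rose to 1.15. The interaction was then positive for 1, with its median at -0.25 in place of 0.76, and neither Acta2 (1.63, adjusted p = 0.221) nor Ccn2 (-0.39, adjusted p = 0.866) passed. The proteoglycan list, at 6 of 15 higher, shares Bgn and Dcn with the matrix list and had 0 higher with the covariate, at a median of 0.11 in place of 0.14. It had 2 higher when any 1 of WT LPS replicate 2, WT LPS replicate 3, KO LPS replicate 2 and KO LPS replicate 3 was left out.

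**Figure D4:**
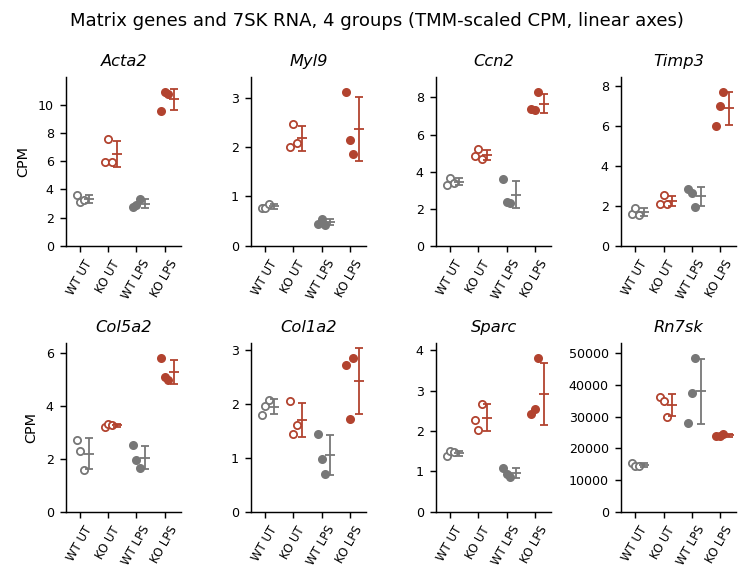
TMM-scaled CPM of 7 matrix and contractile genes and of 7SK RNA (Rn7sk) in the 3 libraries of each of the 4 groups, WT in grey and KO in red, open for UT and filled for LPS, on linear axes from 0 with mean and SD. KO LPS lies above WT LPS for all 7 genes, and Rn7sk is lower in KO LPS than in WT LPS but higher in KO UT than in WT UT.

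Secreted factors of the TGF-beta superfamily that passed the 2-fold threshold were all lower. Gdf3 was at 7.45, 7.81 and 7.31 CPM in WT LPS and 1.92, 2.37 and 2.23 CPM in KO LPS (log2 fold change -1.79, SE 0.13, adjusted p = 1.14e-08). Inhba, which encodes activin A, was at 12.7, 12.2 and 12.3 CPM in WT LPS and 5.94, 5.48 and 6.88 CPM in KO LPS (log2 fold change -1.02, SE 0.16, adjusted p = 0.000176). Gdf15, the gene for a stress-induced factor, was the third, at -1.01 (adjusted p = 0.00515; with the covariate -0.46, adjusted p = 0.485). Tgfbi, a TGF-beta-induced matrix gene, was at 2147, 2094 and 2040 CPM in WT LPS and 2794, 2885 and 2791 CPM in KO LPS, a log2 fold change of 0.43 (adjusted p = 1.18e-06). Over the whole list 6 rose and 4 fell of 27, and with the covariate 3 were higher and 4 lower. Among ADAM proteases 4 of 10 rose and 2 fell, and 1 of the rises and both falls passed the 2-fold threshold. Adam19 rose by 2.48 (adjusted p = 2.67e-11), and by 1.76 in UT, and Adam9 rose by 0.36 (adjusted p = 0.000129). With the covariate 2 of the 10 were higher and 1 lower, with the median at 0.10 in place of 0.30.

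Other genes named by size of change came from no shared list. Rgs1, which encodes a brake on chemokine receptor signalling, was at 61.6, 64.2 and 61 CPM in WT LPS and 30.9, 29.7 and 28.1 CPM in KO LPS (log2 fold change -1.07, SE 0.063, adjusted p = 3.25e-10). In UT Rgs1 did not differ by the test (0.06, adjusted p = 0.473). Ptx3, which encodes a soluble pattern recognition protein, was at 38.4, 42.4 and 38.1 CPM in WT LPS and 19.2, 18.7 and 19.5 CPM in KO LPS (log2 fold change -1.05, adjusted p = 2.83e-05), and it did not pass in DESeq2 (adjusted p = 0.377). Prkar2a, the gene for a regulatory subunit of protein kinase A, was at 6.26, 6.46 and 4.48 CPM in WT LPS and 10.6, 11.1 and 13.1 CPM in KO LPS (log2 fold change 1.01, SE 0.11, adjusted p = 4.66e-06). Pcp4l1 and Lrmda had log2 fold changes of 1.04 and -1.32 (adjusted p = 2.09e-05 and 1.46e-05). The predicted genes Gm16181 and Gm10800 had log2 fold changes of -1.07 and -1.02 (adjusted p = 0.000667 and 0.0394). With the replicate block the adjusted p of Gm10800 was 0.0648, in DESeq2 it was 0.144, and it was 0.127, 0.061, 0.165 and 0.147 without WT LPS replicate 2, WT LPS replicate 3, KO LPS replicate 2 and KO LPS replicate 3. Gm16181 lies antisense to Nfkbil1 near Tnf. With the covariate neither gene passed, with Gm16181 at -0.71 (adjusted p = 0.163) and Gm10800 at -1.32 (adjusted p = 0.0642).

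Several of the strongest decreases were also present in UT and sat in clusters of similar genes. In the Ifi200 family on chromosome 1, Ifi214 was at 40.6, 39.3 and 40 CPM in WT LPS and 22.2, 20.2 and 25.4 CPM in KO LPS (log2 fold change -0.82, SE 0.11, adjusted p = 2.83e-05). It lies at chr1:173519717-173535957, near Ifi208 at chr1:173673675-173698395, whose log2 fold change was -7.88 after LPS and -6.87 in UT. Of the 13 family members tested, 4 fell after LPS, and 5 were lower with the covariate. Pira2 and Gm14548, neighbouring activating receptor genes of the paired immunoglobulin-like family on chromosome 7, had log2 fold changes of -4.04 and -1.54 after LPS and of -3.58 and -1.51 in UT. With the covariate the UT difference of Gm14548 was -0.96 and did not pass (adjusted p = 0.0676). Mid1, a ubiquitin ligase gene at the end of the X chromosome, had log2 fold changes of -3.96 after LPS and -3.62 in UT, and its antisense gene Gm15726 had -4.51 and -7.27. Slc15a2, the gene for a peptide transporter, was at 3.99, 4.22 and 3.54 CPM in WT LPS and 0.422, 0.3 and 0.366 CPM in KO LPS (log2 fold change -3.42, and -3.29 in UT). The interaction passed for Ifi214, whose UT difference was -1.96 (interaction 1.14, adjusted p = 0.0337, and 1.06, adjusted p = 0.364, with the covariate), and not for Ifi208, Pira2, Gm14548, Mid1 or Slc15a2 (adjusted p = 0.531, 0.283, 0.945, 0.437 and 0.828). How multi-mapping reads were counted is not stated, so values of near-identical family members are uncertain. Nnt, which varies between C57BL/6 substrains, was at 16.9, 16.2 and 17.9 CPM in WT LPS and 30.6, 30 and 30.7 CPM in KO LPS (log2 fold change 0.84, adjusted p = 7.11e-08, and 0.99 in UT), and its part in the other results was not tested.

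Most interferon-stimulated genes did not pass the test after LPS, and those that passed were mostly lower. Of 48 tested, 9 fell, 1 rose and 38 did not pass, with a median of -0.05. The lower share was 18.8%, beside 6.54% of all genes, and with the covariate 18 were lower and 2 higher. Isg15, which encodes a ubiquitin-like modifier, was at 1112, 1214 and 1225 CPM in WT LPS and 875, 857 and 804 CPM in KO LPS (log2 fold change -0.49, SE 0.053, adjusted p = 3.59e-06). Without LPS, 43 of the 48 were lower in KO, with a median of -0.52, in a comparison in which 23.8% of all genes passed, 14.1% higher and 9.69% lower. The interaction was positive for 42 of the 48 and negative for 1. With RLE scaling 44 were lower in UT, and with the covariate 23 were lower, with a median of -0.36, and 10 had a positive interaction. Guanylate-binding proteins and immunity-related GTPases, which attack intracellular microbes, gave 3 of 20 lower after LPS and 16 lower in UT, and with the covariate 5 and 4, with the UT median at -0.29 in place of -0.71. The Schlafen family gave 1 of 7 after LPS, Slfn4 (-0.41, adjusted p = 8e-06), and all 7 in UT, and with the covariate 3 after LPS and 2 in UT, with the UT median at -0.30 in place of -0.91. Of 18 interferon, receptor and JAK-STAT genes 7 rose after LPS and 2 fell, with the receptor genes Ifnar1 at 0.33 on the log2 scale (adjusted p = 9.03e-05) and Ifngr1 at 0.29 (adjusted p = 0.000861). With the covariate 2 of the 18 were higher and 3 lower after LPS. The count of 7 higher was 4 without WT LPS replicate 3 and 3 without KO LPS replicate 3.

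**Figure D5:**
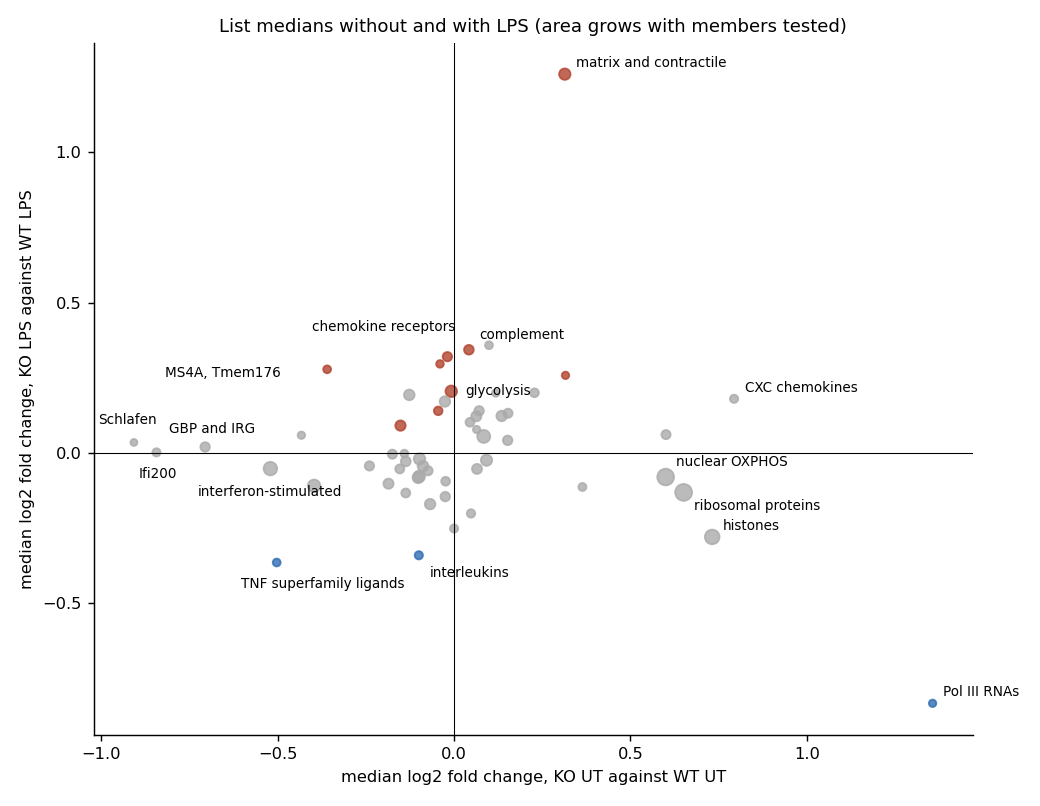
Median log2 fold change of each list with at least 7 members tested, KO UT against WT UT on the x axis and KO LPS against WT LPS on the y axis, with red for lists led by increases and blue for lists led by decreases after LPS. Matrix and contractile genes stand at 1.26 after LPS and 0.31 in UT, and the lists of interferon-stimulated, Ifi200, guanylate-binding and Schlafen genes lie near 0 after LPS but below -0.5 in UT.

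Among non-coding and short transcripts, several classes held more genes that fell than rose in KO LPS. Of 762 transcripts of the annotation class TEC, which still await experimental evidence, 90 fell (11.8%, beside 6.54% of all genes) and none rose, with a median of -0.34. The count of 90 was 54 without KO LPS replicate 3, 57 without WT LPS replicate 3 and 59 without WT LPS replicate 2. Long intergenic RNAs gave 20 of 366 lower (5.46%) and 3 higher, and small nucleolar RNAs 10 of 117 lower (8.55%) and none higher, so the lower shares of these 2 classes were near that of all genes. Among 9 abundant RNA polymerase III transcripts 5 fell. Rn7sk, the 7SK RNA that holds back transcription elongation, was at 28000, 37460 and 48420 CPM in WT LPS and 23800, 23940 and 24630 CPM in KO LPS (log2 fold change -0.65, adjusted p = 0.000573). WT LPS replicate 1 lay closest to the KO libraries, and the UT difference was the reverse at 1.20 (adjusted p = 2.07e-07). Rmrp, an RNA of ribosomal RNA processing, was at -1.002 after LPS and 1.48 in UT. These RNAs make up most of the covariate, and with it the list had a median of 0.18, while TEC transcripts gave 23 lower with a median of -0.301, close to that without it. Rn7sk itself had a log2 difference of 0.07 there (adjusted p = 0.223). Among 58 clustered histone genes, 10 fell and 1 rose. Hist1h4n was at 26, 32.7 and 40.4 CPM in WT LPS and 14.2, 14.4 and 12.9 CPM in KO LPS (log2 fold change -1.25, adjusted p = 6.32e-07), and the histone list gave 1 lower and 9 higher with the covariate. The count of 10 lower was 22 without WT LPS replicate 1, 4 without WT LPS replicate 2, 5 without WT LPS replicate 3 and 6 without KO LPS replicate 1.

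Genes for ribosomal proteins and for nuclear subunits of the respiratory chain passed the test after LPS no more often than all genes, 7.78% of which were higher and 6.54% lower. Of 80 cytosolic ribosomal protein genes 1 rose and 1 fell, and of 78 nuclear genes for respiratory chain subunits 5 rose and 3 fell. In UT the same lists had 76 and 71 members higher in KO, and none lower. With the covariate 0 and 3 were higher in UT and 20 and 6 lower, and the UT medians turned from 0.65 and 0.60 to -0.18 and -0.13. The counts after LPS depended on WT LPS replicate 1 and on the covariate. Without that library 61 ribosomal protein genes and 36 respiratory genes were lower in KO LPS, and with the covariate 60 and 40 were higher. Lysosomal genes gave 12 higher (27.3%) and 1 lower of 44, and with the covariate 3 and 2. The higher count was 7 without KO LPS replicate 2. Genes of the cytoskeleton gave 8 higher (30.8%) and none lower of 26, and 7 higher with the covariate and 15 without WT LPS replicate 1, with Actb, the gene for beta-actin, at 0.34 (adjusted p = 4.08e-05). Unfolded protein and stress genes gave 4 higher and 4 lower of 32 (12.5% each way), and 2 and 5 with the covariate. There were 8 higher without WT LPS replicate 1 and 2 lower without KO LPS replicate 1. Cell cycle genes gave 5 higher (12.5%) and 4 lower (10%) of 40, and 1 and 3 with the covariate. The higher count was 3 without WT LPS replicate 2. NRF2 targets gave 3 higher (9.68%) and none lower of 31, and 6 and 4 with the covariate.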

How the data were processed

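RNA-seq counts per gene were deposited by the authors as 1 table of whole-number, unnormalised counts for 12 libraries. Per the labels and the study's methods, total RNA libraries were stranded and depleted of ribosomal and globin RNA, and reads were mapped to GRCm38 (mm10). The submitters' notes name FastQC 0.11.9, HISAT2 2.1.0, SAMtools 1.17 and featureCounts 2.0.0; the strand setting, annotation release and treatment of multi-mapping reads are not given in the sources used here. Groups were taken from the labels. Genes kept by filterByExpr (15523 of 48526, holding 99.96% of counts) were tested by edgeR 4.0.16 (R 4.3.3) with TMM factors, 1 quasi-likelihood fit of 4 group means, and Benjamini-Hochberg adjustment over all genes kept. Fold changes are KO over WT. Genes were called at an adjusted p under 0.05 and an absolute log2 fold change above 1, and lists were counted at the adjusted p alone. The named genes were Tnf, the 15 largest changes in each direction among called protein-coding genes with a mean of at least 5 CPM over the LPS libraries and no overlap between genotypes (11 higher and 13 lower were eligible), and members of the lists where described. The members and lists were chosen with earlier results of these data known. Alternatives were DESeq2 1.42.0, other scalings and filters, protein-coding genes only, the LPS libraries alone, a replicate block, a small RNA covariate and leaving out each LPS library. The labels give same-numbered libraries a shared batch, and the correlations of their deviations from the WT LPS and KO LPS means were -0.0269, 0.0152 and -0.0286. No pair of replicates agreed within sampling noise (chi-square per degree of freedom of at least 3.73). The fit was also run on simulated counts with known folds, as a check of the code and not of the results. Promoters came from RefSeq (GRCm38.p6) and matched 10233 of the tested genes by symbol.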

Additional observations from a re-analysis of the deposited data

Results flagged for a closer look

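55 of the named genes had an interaction of genotype and LPS past an adjusted p of 0.05 in edgeR, the difference between the KO effect after LPS and in UT, given in parentheses on the log2 scale. In 11 of them the KO effect passed the test in both treatments with opposite signs. Genes higher in KO after LPS and lower in KO without LPS were Asns (0.94), Ccr2 (0.94), Ms4a6c (0.64), Ms4a6d (0.62), Ptges (0.92) and Tgfbi (0.60). Genes lower in KO after LPS and higher in KO without LPS were Hist1h4n (-1.61), Cxcl2 (-1.10), Il10 (-1.43), Rmrp (-2.48) and Rn7sk (-1.86).

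In 19 the KO effect passed in both treatments with the same sign and differed in size. Those higher in KO in both were Adam19 (0.72), Acta2 (0.84), Ccn2 (0.95), Fcrls (0.29), Apoe (-0.30), C1qa (-0.31), C1qc (-0.26), Cxcl1 (-1.29), Gas6 (-0.27), Igf1 (0.30) and Pdk1 (0.35). Those lower in KO in both were Tnf (-0.38), Axl (0.43), Ifi214 (1.14), Isg15 (0.43), Nlrc5 (0.30), Nod1 (0.27), Slfn4 (1.08) and Tnfsf8 (1.25). In 22 the KO effect passed after LPS and not in UT. Higher in KO after LPS were Prkar2a (1.16), Actb (0.34), Adam17 (0.32), Adam9 (0.29), C3ar1 (0.54), Fcgr1 (0.27), Fcgr2b (0.22), Fpr2 (0.63), Ldha (0.41), Pgk1 (0.31), Slc16a3 (0.45), Timp3 (1.05) and Tlr4 (0.40). Lower in KO after LPS were Rgs1 (-1.14), Ptx3 (-2.57), Ccl3 (-0.44), Ccrl2 (-0.41), Il12b (-0.71), Nfil3 (-0.34), Nr4a1 (-0.68), Osm (-0.36) and Tnfaip3 (-0.28). The remaining 3, which passed in UT and not after LPS, were Acod1 (1.21), Ccl5 (0.49) and Tnfrsf1b (0.43).

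The small structured RNA share of counts moved with genotype in opposite directions in the 2 treatments. Its part and that of the interaction therefore cannot be told apart. With that share as a covariate, 377 genes in all kept an interaction past the test, against 2611 without it, and 11 of the 55 named genes did with the same sign, while in 18 the sign of the interaction turned. The other 26 kept the sign and lost the call, and in 15 of them the value fell by less than 1.5 times or rose, as for Ptx3 (-2.52), Cxcl2 (-0.98), Il12b (-1.17), Fpr2 (0.88) and Acta2 (1.63). Of the 11 with opposite signs, Asns, Il10, Ms4a6c and Ptges kept the interaction, Il10 and Ms4a6c kept the UT difference, and the UT sign turned for Hist1h4n, Ccr2 and Rn7sk. Of the 19 with the same sign, Cxcl1, Isg15 and Slfn4 kept the interaction, and its sign turned for Tnf, Ccn2, Apoe, C1qa, Axl, C1qc, Igf1 and Pdk1, although 15 of the 19 kept the UT difference and all 19 that after LPS. Of the 22 that passed after LPS and not in UT, Rgs1 and Slc16a3 kept the interaction, and its sign turned for Actb, Adam17, Adam9, Ccl3, Fcgr2b, Ldha, Timp3 and Tlr4. The call after LPS was lost there for Adam17, Osm and Tlr4, and the value of Osm was about as large as without the covariate. Of the 3 that passed in UT and not after LPS, Acod1 and Ccl5 kept the interaction.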

How the results depend on the processing

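The 194 genes called in KO LPS against WT LPS became 117 with a filter at a mean of 1 CPM, which tests fewer genes, 103 with the share of small structured RNAs as a covariate, and 140 to 245 when 1 LPS library was left out. The 2223 genes with an adjusted p under 0.05 became 1385 with the covariate and 1405 to 3228 without 1 library, with 1405 without KO LPS replicate 3 and 1449 without KO LPS replicate 1. The corresponding counts in UT and for the interaction were 3700 and 2611, and the covariate gave 891 and 377. Leaving out 1 LPS library gave 3545 to 4301 in UT and 1901 to 3830 for the interaction. Of the genes past the test after LPS, 54.3% were higher in KO. This majority turned to lower with upper-quartile scaling (46.3%), the 1 CPM filter (47.9%), protein-coding genes only (45.5%), the LPS libraries alone (48.6%), the covariate (47.3%) and without WT LPS replicate 3 (48.9%), and it was 63.7% with no filter on low counts. In UT 59.4% were higher. The UT share was 37.9% in DESeq2, 38.6% with RLE scaling and 70.7% with the covariate, and the positive share of the interaction was 43.5% against 63.9% in DESeq2 and 63.5% with RLE scaling. No scaling moved the median log2 fold change of all genes by more than 0.1 after LPS. The cause of these shifts was not tested.

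Among the lists, the covariate left 3 TNF superfamily ligands, 3 genes of Toll-like receptors and LPS sensing and 10 of glycolysis past the test. It also left 2 ADAM proteases, 4 matrix and contractile genes and 0 proteoglycans, and 1 RNA polymerase III transcript with the median of that list reversed. Genes of Toll-like receptors and LPS sensing gave 6 in the LPS libraries alone. Without 1 library in turn, the counts ran from 3 to 12 for Toll-like receptors and LPS sensing and 13 to 22 for matrix and contractile genes. They ran from 2 to 5 for proteoglycans, 14 to 19 for glycolysis, 10 to 12 for chemoattractant receptors and 8 to 10 for complement. The ranges were 5 to 7 for MS4A and Tmem176, 3 to 4 for ADAM proteases and 4 to 5 for TNF superfamily ligands. For interleukins they were 5 to 6 and for RNA polymerase III transcripts 4 to 7, and the count stayed at 6 for Fc receptors.

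With the covariate the sign turned for Acod1 (-0.038), Nfkbia (0.005) and Rn7sk (0.072). For Tnfrsf1a, which did not pass in any fit named here, the sign turned with upper-quartile scaling (-0.021), the 1 CPM filter (-0.014), protein-coding genes only (-0.033) and the LPS libraries alone (-0.003), and it ran from -0.049 to 0.034 without 1 LPS library in turn, below 0 without WT LPS replicate 1, WT LPS replicate 2 or KO LPS replicate 3. For Pdgfrb, at -0.009, it turned with no filter on low counts (0.019), and the values ran from -0.037 to 0.024 without 1 LPS library in turn. Over 130 named genes, 1903 repeats under an alternative kept the direction and the side of the threshold, 29 lost the threshold, 3 gained it and 12 turned the sign. With the replicate block 164 genes were called and 1753 had an adjusted p under 0.05, and the block changed no other named gene's call than that of Gm10800.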

Other observations

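Single genes of other groups also differed in KO LPS. Of 17 clock genes tested, 4 fell and 1 rose (23.5% and 5.88%, beside 6.54% and 7.78% of all genes). Bhlhe40, which encodes a repressor shared by the clock and by cytokine regulation, was at 16.3, 13.1 and 12.9 CPM in WT LPS and 8.24, 8.71 and 9.73 CPM in KO LPS (log2 fold change -0.67, SE 0.100, adjusted p = 0.000113). Cry2, the gene for a core clock repressor, fell by 0.47 (adjusted p = 0.0024). Among 18 genes of purine sensing, 2 rose, 1 fell and 15 did not pass, shares near those of all genes. P2ry14, which encodes a receptor for UDP-glucose, fell from 90.5 to 55.8 CPM (adjusted p = 8.23e-08), and P2ry6, which encodes a receptor for UDP, rose from 125 to 162 CPM (adjusted p = 0.000114).

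Among 20 lectin and pattern receptors, 4 rose and 4 fell. Clec12a, an inhibitory lectin gene, rose by 0.33 (adjusted p = 5.56e-05), while Trem1, an amplifying receptor gene, and Nod1, a sensor of bacterial peptidoglycan, fell by 0.31 and 0.26 (adjusted p = 0.011 and 0.00358). Of 22 genes of MHC class I presentation 3 fell, including Nlrc5, the gene for their transactivator (-0.27, adjusted p = 0.000649), and none rose. Asns, the gene for asparagine synthetase, was at 40, 39.9 and 42.1 CPM in WT LPS and 65.4, 69.5 and 60.3 CPM in KO LPS (log2 fold change 0.68, adjusted p = 6.32e-07) and at -0.26 in UT (adjusted p = 0.0197; with the small RNA covariate -0.37, adjusted p = 0.287). S100a9, which encodes a calcium-binding alarmin, rose from 6.08 to 10.2 CPM (adjusted p = 0.000936).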
